A study of Mus musculus with 2 samples.

Results

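The genes described here are 10 genes of the neuronal growth cone and of the actin cytoskeleton that fills it: Gap43, Basp1, Marcks, Actb, Actg1, Tmsb4x, Tmsb10, Cfl1, Pfn1 and Pfn2. They were matched as a list of names by a rule that used no measured value, but the list was chosen with earlier results of these data known. All 10 were found among the 43346 genes with Ensembl identifiers in the files, 21474 of them protein-coding. The tissue was embryonic hindbrain of the mouse strain B6NCrl, taken on day 16.5, with no genotype or treatment contrast. There was 1 group of 2 libraries, and each library came from its own pool of male and female embryos. The pool of replicate 2 held tissue of 37 embryos, and the number behind replicate 1 is not stated in the sources here. Both libraries started from 10 ng of RNA longer than 200 bases, with spike-in RNA added. They held 42467811 and 42017008 expected counts, that is, reads assigned to features by the authors' model, of which spike-ins took 2.18% and 1.59%. Levels are in TPM, which correct reads for transcript length and share out the same total in each library, so that genes can be compared within a library. They are printed as the mean ± SD over the 2 libraries (n = 2).

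A growth cone is the motile tip of a growing axon, pushed outward by actin filaments that assemble at its edge and flow back towards its centre. Gap43, Basp1 and Marcks encode acidic proteins held at the inner face of the plasma membrane, which bind calmodulin and the lipid PIP2 and are phosphorylated by protein kinase C. Actb and Actg1 encode the cytoplasmic actins; the beta thymosins Tmsb4x and Tmsb10 hold actin monomers, the profilins Pfn1 and Pfn2 pass monomers to growing filament ends, and cofilin (Cfl1) severs old filaments.

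All 10 genes were abundant. Each reached 100 TPM in both libraries, a level reached by 7.76% of protein-coding genes, and 6 of the 10 reached 1000 TPM, against 0.326%. The floor of 1 TPM was passed by all 10, against 63.5% of protein-coding genes. Their median was 1911 TPM, where the median of all protein-coding genes was 5.82 TPM. Summed, the 10 genes took 2.11% of all TPM in replicate 1 and 2.18% in replicate 2. In whole tissue, fewer cells of a type and less RNA per cell cannot be told apart. Hox genes that mark hindbrain position reached 1 TPM in both libraries for 8 of 8.

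**Figure D1:**
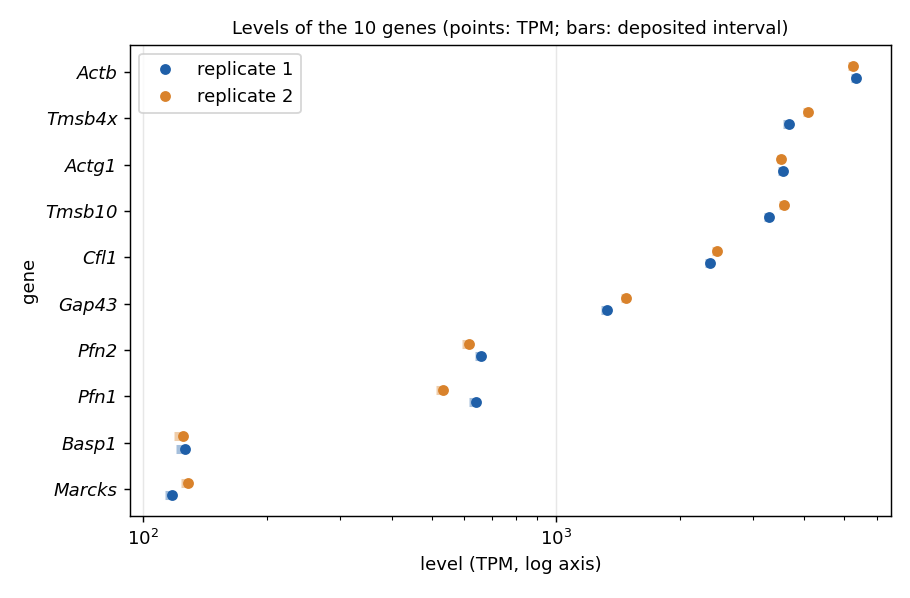
Level of each of the 10 genes in TPM (log axis), with 1 point for each library and a bar for the interval the authors deposited with it. Actb is highest at 5339 and 5258 TPM, and Basp1 and Marcks lie together at the bottom between 118 and 129 TPM.

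The cytoplasmic actins were the largest group. Actb (ENSMUSG00000029580.10, chr5:142903115-142906754, minus strand) had 5339 TPM in replicate 1 and 5258 TPM in replicate 2, a mean of 5299 ± 57.6 TPM. It ranked 4 among protein-coding genes outside the mitochondrial genome. Actg1 (ENSMUSG00000062825.11, chr11:120345690-120348542, minus strand) had 3552 and 3523 TPM, a mean of 3538 ± 20.5 TPM, and ranked 11. Positions are on GRCm38 throughout. Both libraries gave nearly the same split between the actins. The log2 ratio of Actb to Actg1 was 0.59 in replicate 1 and 0.58 in replicate 2, and the deposited TPM intervals of the genes were apart in each library.

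The 2 actin coding sequences are shown because nearly all of their differences are silent. They are 1128 bases long in both genes and were 88.7% identical, with 128 bases different. The differences touched 125 codons, and 4 of these encode another residue, all 4 within the first 10 codons. The first 60 coding bases follow, 5′ to 3′, with the 9 bases that differ between the genes in capitals.
Actb: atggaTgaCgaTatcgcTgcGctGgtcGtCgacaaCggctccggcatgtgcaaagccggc
Actg1: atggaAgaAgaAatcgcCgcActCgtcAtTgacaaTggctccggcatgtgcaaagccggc
The longest stretch shared by both coding sequences was 62 bases. Of the 31-base words in Actb transcripts, 76.5% occurred in no other gene's transcripts, pseudogenes included, and of those in Actg1 transcripts 59.8%.

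Actg1 was the gene of the 10 whose signal was divided between transcripts. Its transcript Actg1-202 took 63.02% of the gene's TPM in replicate 1 and 60.68% in replicate 2, and Actg1-204 took 36.11% and 38.49%. Both carry the same coding sequence of 1128 bases. Their annotated ends differ: Actg1-202 has 6 exons and 124 untranslated bases before its start codon, while Actg1-204 has 5 exons and begins at the start codon. In the other 9 genes the leading transcript took 95% or more of the TPM in both libraries. Gap43-201 took 99.9%, Actb-201 99.1%, Tmsb4x-201 99.0%, Pfn1-201 98.5%, Pfn2-201 98.4% and Tmsb10-203 97.5% as means of both libraries. A single transcript was listed for Basp1, Marcks and Cfl1 each, so their share was fixed at 100%. The share of all genes that pass the limit of 95% was not taken, so this is not shown to be particular to these genes.

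Transcripts annotated as not making the full protein were rare. Actb-204, a retained-intron model, had 157.88 expected counts in replicate 1 and 514.76 in replicate 2, which was 0.15% and 0.5% of Actb. Pfn1-204, annotated as a target of nonsense-mediated decay, had 37.52 and 98.14 counts, or 0.37% and 1.14% of Pfn1. An Actg1 transcript of the same annotation went the other way with 63.37 and 9.2 counts. These shares are model estimates with no test behind them.

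The muscle actins were far lower, and those of striated muscle were uneven between the pools. Acta1, the skeletal muscle actin, had 139.5 TPM in replicate 1 and 9.94 TPM in replicate 2. Actc1, the cardiac actin that embryonic skeletal muscle also uses, had 59.9 and 1.05 TPM. The smooth muscle actins were at 24.4 and 15.3 TPM (Acta2) and at 3.04 and 2.87 TPM (Actg2). Actb was 219-fold above Acta2 in replicate 1 and 344-fold in replicate 2, and 38.3-fold and 529-fold above Acta1. All 4 muscle actins together made up 2.49% of actin TPM in replicate 1 and 0.331% in replicate 2.

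Replicate 1 also held more RNA of skeletal muscle markers. Over the 8 markers that are not actins, the summed level was 181.82 TPM in replicate 1 and 7.13 TPM in replicate 2, each marker was over 2-fold higher in replicate 1, and none was at 0. Acta1 and Actc1 were the 2 of 4 muscle actins past 2-fold in that direction, against 1.11% of expressed protein-coding genes. Tpm2, a muscle tropomyosin, had 34.3 and 8.71 TPM. Meningeal fibroblast markers summed to 772 and 429 TPM. Actb and Actg1 differed between the libraries by 0.03 and 0.04 on the log2 scale. The part of muscle or meninges in the values of the 10 genes was not tested.

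The beta thymosins lay among the actins in level, with Tmsb4x between Actb and Actg1. Tmsb10 was below Actg1 in replicate 1 and above it in replicate 2, where their intervals overlapped. Tmsb4x (ENSMUSG00000049775.12, chrX:167207093-167209315, minus strand) had 3666 TPM in replicate 1 and 4095 TPM in replicate 2, a mean of 3880 ± 304 TPM. Tmsb10 (ENSMUSG00000079523.4, chr6:72957347-72958748, minus strand) had 3295 and 3579 TPM, a mean of 3437 ± 201 TPM. Both were higher in replicate 2. Within a library Tmsb4x was the higher of them, with a log2 ratio of Tmsb10 to Tmsb4x of -0.17 ± 0.03 and intervals apart in both libraries. Together they summed to 78.3% of the cytoplasmic actins' TPM in replicate 1 and 87.4% in replicate 2. In counts, which are not corrected for length, the thymosins held 0.236% of the total in replicate 1 and 0.271% in replicate 2. The cytoplasmic actins held 0.950% and 0.970%. The log2 ratio of Tmsb10 to Tmsb4x was -0.68 in counts. The values compare transcripts, and protein was not measured.

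Each thymosin is encoded by only 135 bases, so the whole coding sequences are shown, 5′ to 3′, with the 40 bases that differ in capitals.
Tmsb4x: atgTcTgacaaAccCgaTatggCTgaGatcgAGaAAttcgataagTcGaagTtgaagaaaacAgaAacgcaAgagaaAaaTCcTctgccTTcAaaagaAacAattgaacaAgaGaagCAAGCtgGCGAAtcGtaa
Tmsb10: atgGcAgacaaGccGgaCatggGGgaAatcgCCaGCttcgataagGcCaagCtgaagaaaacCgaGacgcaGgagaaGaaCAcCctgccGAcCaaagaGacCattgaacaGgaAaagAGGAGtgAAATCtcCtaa
The 2 were 70.4% identical. Of 27 codons that differ, 11 encode another residue. Lysine codons made up 20.5% of the codons in Tmsb4x and 18.2% in Tmsb10. The leading Tmsb4x transcript is 768 bases long and that of Tmsb10 570 bases, so the coding part is 17.6% and 23.7% of each. All 31-base words of Tmsb4x were found in that gene alone, against 69.0% for Tmsb10.

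Cfl1 was the most abundant of the cofilin family. Cfl1 (ENSMUSG00000056201.6, chr19:5490455-5495201, plus strand) had 2371 TPM in replicate 1 and 2459 TPM in replicate 2, a mean of 2415 ± 62.4 TPM. Cfl2, the muscle-type cofilin, had 152 and 146 TPM, and Dstn, which encodes the related protein destrin, had 369 and 361 TPM. Cfl1 lay 16.2-fold above Cfl2 and 6.61-fold above Dstn, and took 82.0% and 82.9% of the TPM of the 3 genes. Over all Cfl1 transcripts of GENCODE M21, exons of Cfl1 overlap those of Snx32 on the other strand over 468 bases. Only Cfl1-201 carried values here, and whether the overlap reaches that transcript was not tested. Snx32 had 66.7 and 71.9 TPM, and since the use of strand in counting is not given, reads of that stretch cannot be assigned to either gene here.

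The profilins were close to each other in TPM. Pfn1 (ENSMUSG00000018293.4, chr11:70651850-70654644, minus strand), the form found in most tissues, had 641 TPM in replicate 1 and 534 TPM in replicate 2, a mean of 588 ± 75.6 TPM. Pfn2 (ENSMUSG00000027805.12, chr3:57841895-57848079, minus strand), the form enriched in brain, had 661 and 615 TPM, a mean of 638 ± 32.3 TPM. Both were lower in replicate 2, where their intervals lay below those of replicate 1. The log2 ratio of Pfn2 to Pfn1 was 0.04 in replicate 1 and 0.20 in replicate 2. The intervals of the 2 genes were apart in replicate 2 but overlapped in replicate 1, so no order was called. In counts, which are not corrected for length, the log2 ratio was 1.28, and the leading Pfn2 transcript is the longer in the files, with 1827 bases against 861. The coding sequences are both 423 bases long and were 61.5% identical, with 52 of 104 differing codons encoding another residue. The profilins summed to 14.6% of the cytoplasmic actins' TPM in replicate 1 and to 13.1% in replicate 2.

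Of the membrane proteins of the growth cone, Gap43 stood well above the others. Gap43 (ENSMUSG00000047261.9, chr16:42248442-42340651, minus strand) had 1330 TPM in replicate 1 and 1483 TPM in replicate 2, a mean of 1406 ± 108 TPM, and ranked 33. Basp1 (ENSMUSG00000045763.7, chr15:25363277-25413764, minus strand) had 127 and 125 TPM, a mean of 126 ± 1.36 TPM. Marcks (ENSMUSG00000069662.5, chr10:37133375-37138920, minus strand) had 118 and 129 TPM, a mean of 123 ± 7.86 TPM. Gap43 was 11.2-fold above Basp1, with intervals apart in both libraries. Marcks and Basp1 changed order between the libraries, and the log2 ratio of Marcks to Basp1 was -0.11 in replicate 1 and 0.05 in replicate 2. Basp1 ranked 1319 and Marcks 1351 among protein-coding genes.

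Marcks has the longest leading transcript of the 10 genes. It is annotated with 4048 bases, of which 2733 follow the coding part, and Marcks had more expected counts than Basp1 in both libraries, with 11655 and 13071 against 5554 and 5605. Marcks and Basp1 also had the coding sequences richest in G and C of the 10 genes, at 75.4% and 74.2%, while Gap43 had 55.6% and the lowest was Tmsb4x at 40%. Whether base composition affected their counts was not tested. Alanine codons made up 20.3% in Gap43, 29.2% in Basp1 and 28.8% in Marcks, and 8.57% or less in the other 7 genes. Glutamate codons made up 15.0%, 17.7% and 16.5%, and lysine codons 13.2%, 12.4% and 7.44%.

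Marcksl1, the close relative of Marcks, was the more abundant of the pair. It had 1297 TPM in replicate 1 and 1318 TPM in replicate 2, which was 10.6-fold above Marcks, a log2 ratio of 3.41 ± 0.08. Both encode the basic stretch that binds calmodulin, PIP2 and actin and that protein kinase C phosphorylates. The most similar in-frame stretch of their coding sequences, 75 bases long, covers it and is shown 5′ to 3′ with the 20 differing bases in capitals.
Marcks: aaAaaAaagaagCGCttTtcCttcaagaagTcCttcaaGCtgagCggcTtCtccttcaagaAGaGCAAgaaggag
Marcksl1: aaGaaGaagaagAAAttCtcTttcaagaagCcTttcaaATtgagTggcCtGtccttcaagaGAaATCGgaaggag
These bases are 436 to 510 of the Marcks coding sequence and 259 to 333 of that of Marcksl1. Of the 25 codons, 11 in Marcks and 10 in Marcksl1 encode lysine, 5 and 4 encode phenylalanine, and 5 and 3 encode serine.

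**Figure D2:**
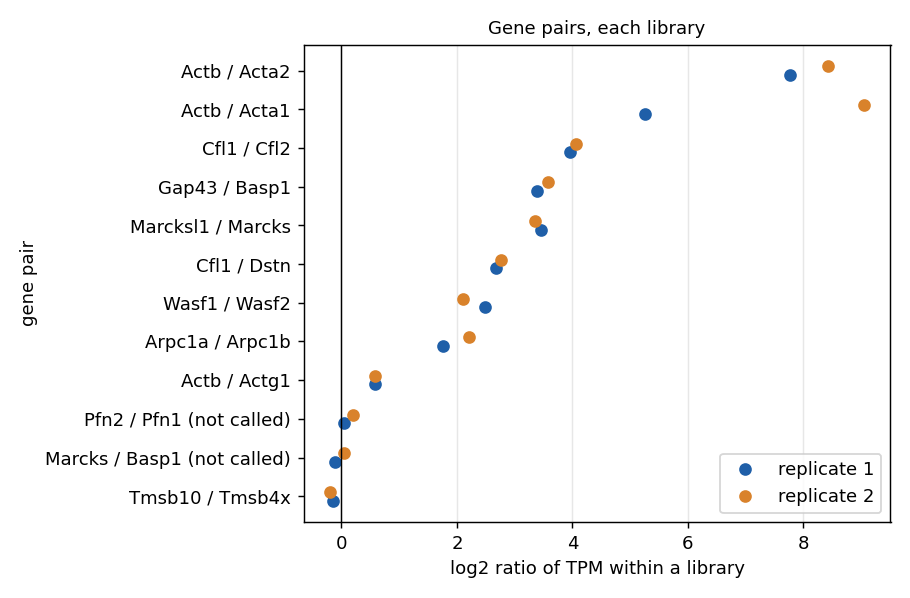
Log2 ratio of TPM within a library for 12 gene pairs, with 1 point for each library. The 10 pairs called different lie on the same side of 0 in both libraries, while Marcks to Basp1 crosses 0 and Pfn2 to Pfn1 has ratios of 0.04 and 0.20.

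Ordered by mean level, the 10 genes ran Actb, Tmsb4x, Actg1, Tmsb10, Cfl1, Gap43, Pfn2, Pfn1, Basp1 and Marcks. Of the 9 steps in that order, 3 did not exceed the summed SDs of the neighbours: Actg1 to Tmsb10 at 1.03-fold, Pfn2 to Pfn1 at 1.09-fold and Basp1 to Marcks at 1.02-fold. The widest step was from Pfn1 to Basp1, at 4.68-fold. Gap43 lay 2.21-fold above Pfn2, and Cfl1 lay 1.72-fold above Gap43. Across the pairs compared, 10 of 12 had intervals apart in both libraries. No such share was taken over other gene pairs, so this count has no background to be set against. The remaining called pairs were related genes of filament nucleation. Wasf1, the WAVE subunit typical of neurons, was 4.90-fold above Wasf2, and Arpc1a was 3.94-fold above Arpc1b. The log2 ratio of Arpc1a to Arpc1b was 1.98, and 2.83 over protein-coding transcripts alone. From counts not corrected for length, the log2 ratio was 2.58 in place of 4.02 for Cfl1 to Cfl2, 1.94 in place of 2.73 for Cfl1 to Dstn, and 2.02 in place of 3.41 for Marcksl1 to Marcks.

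Between the libraries the 10 genes moved little. The log2 ratio of replicate 2 over replicate 1, from counts scaled with edgeR's TMM factors, was 0.21 for both Gap43 and Tmsb4x, 0.18 for Marcks, 0.17 for Tmsb10 and 0.10 for Cfl1. It was near 0 for Actg1 (0.04), Basp1 (0.03) and Actb (0.03), and just below 0 for these 3 as a ratio of TPM. The profilins had ratios below 0, at -0.05 for Pfn2 and -0.21 for Pfn1, which were above 0 when scaled to spike-ins. That scaling raised the median of the 10 genes from 0.07 to 0.52. None of the 10 was 2-fold apart, against 1.51% of protein-coding genes with a mean of 1 TPM. Their median was 0.07, as was that of the 1757 protein-coding genes with a mean of 100 TPM, of which 90% lay between -0.18 and 0.27. Pfn1 alone fell outside that range.

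The deposited intervals were narrow enough at this depth to separate the libraries for most of these genes. They lay apart for 8 of the 10, against 31.4% of protein-coding genes with a mean of 1 TPM and 52.1% of those with a mean of 100 TPM. Gap43, Marcks, Tmsb4x, Tmsb10 and Cfl1 were higher in replicate 2, that is 5 of 10 against 9.07%. By these TPM intervals Actb, Pfn1 and Pfn2 were higher in replicate 1, that is 3 of 10 against 22.3%. Both shares by direction are over genes with a mean of 1 TPM. None was taken at a mean of 100 TPM, where the median log2 ratio was 0.07, so a lean particular to these genes is not shown. The direction depended on the scaling. Actb had a log2 ratio of 0.03 from TMM-scaled counts, slightly higher in replicate 2. With spike-in scaling Actb, Pfn1 and Pfn2 were all higher in replicate 2. The intervals of Basp1 and Actg1 overlapped. An interval covers how precisely reads were assigned within a library, not the spread between pools. TPM lay above its own interval in both libraries for 9 of the 10, Basp1 being the exception, so the intervals are not centred on the levels printed here.

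**Figure D3:**
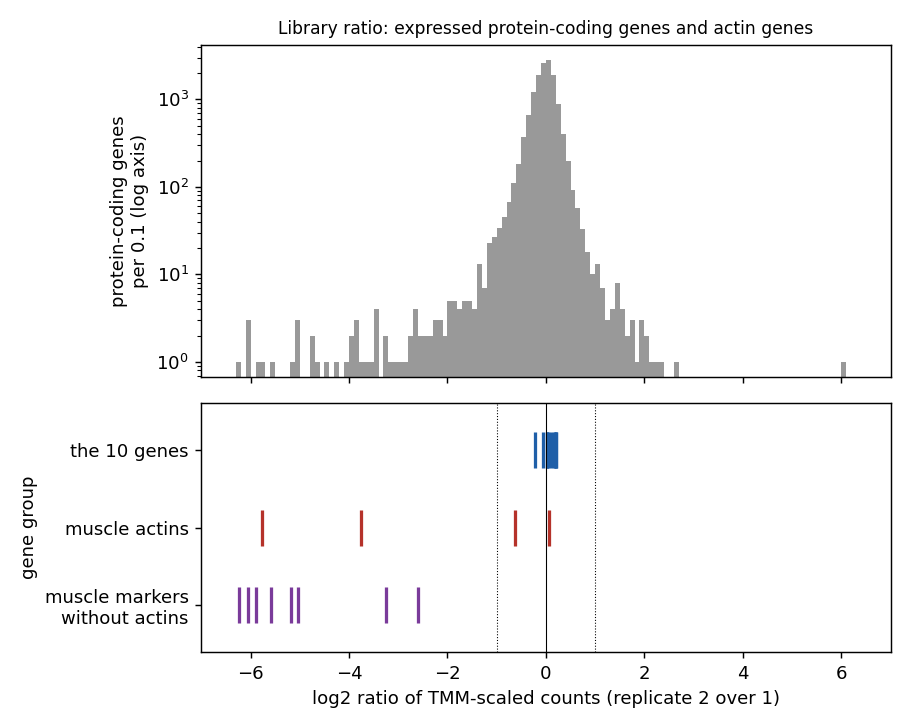
Log2 ratio of TMM-scaled counts, replicate 2 over replicate 1: above, a histogram of 13843 protein-coding genes with a mean of 1 TPM (log axis of gene numbers), and below, 1 tick for each gene of 3 groups, with dotted lines at 2-fold. The 10 genes lie between -0.21 and 0.21, and Acta1, Actc1 and all 8 muscle markers lie left of the 2-fold line.

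Several of the 10 genes have processed pseudogenes, copies of the spliced RNA inserted elsewhere in the genome, which can take or lend reads. There were 13 annotated pseudogenes that shared at least 10% of their 31-base words with transcripts of 1 of the 10 genes: 5 of Actg1, 3 each of Actb and Tmsb10, and 2 of Cfl1. Together they held 0.191% of the counts of the 10 genes and their copies in replicate 1 and 0.446% in replicate 2. For Actg1 the share was highest, at 0.655% and 1.51%. Gap43, Basp1, Marcks, Tmsb4x, Pfn1 and Pfn2 had no copy that met this limit. Only genes annotated as pseudogenes were counted as copies. Gm9844, annotated as protein-coding, shared 73.8% of its words with Tmsb10 and is not in these shares. Its own counts are not given here.

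The 5 copies with the most counts differed between the libraries more than their parent genes did. Gm12715 (chr4:103563402-103564529), 93.8% of whose words are shared with Actg1, had 852.24 counts in replicate 1 and 2066.73 in replicate 2, while Actg1 itself had 160330 and 162720. Gm8399, another Actg1 copy on chromosome 13, had 169.57 and 373.5 counts, and Actg-ps1 on chromosome 8 had 28.41 and 42.43. Gm15725, an Actb copy on chromosome 16, had 122.89 and 317.78 counts. Gm6180, a Cfl1 copy on chromosome 8, had 57.09 and 238.27. Others did not follow: Gm3788, the Tmsb10 copy with counts, had 28.09 and 27.7, and 3 of the 13 copies were at 0 in both libraries. Of 6 copies with a mean of 1 TPM, 4 were 2-fold or more higher in replicate 2. The same held for 51.4% of the 589 processed pseudogenes at that level, whose median log2 ratio was 1.05. Gm15725, 1 of the 4, is annotated as a transcribed processed pseudogene, a type not among those 589. Why the copies differed between the libraries was not tested.

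**Figure D4:**
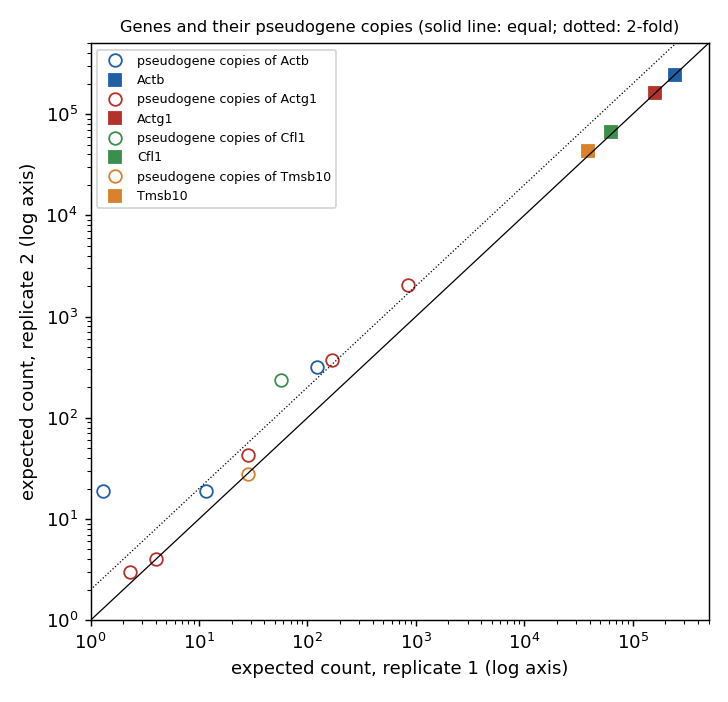
Expected counts in replicate 2 against replicate 1 (both log axes) for Actb, Actg1, Cfl1 and Tmsb10 (squares) and their pseudogene copies (open circles), with a solid line at equal counts and a dotted line at 2-fold. The parent genes lie near the line of equality, and the most abundant copy, Gm12715, has 852.24 and 2066.73 counts.

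Promoter windows of RefSeq on GRCm38.p6 were matched for 7 of the 10 genes: Basp1, Actg1, Tmsb4x, Tmsb10, Cfl1, Pfn1 and Pfn2, with 9 windows among them. The windows were searched on both strands over 250 bases before the start. The sequence GGGCGG, the core of the GC box, was in 8 of 9 windows and in 6 of the 7 genes, all but Cfl1, against 32.7% of the 32851 windows of all genes. CCAAT was in 2 of 9, for Actg1 and Cfl1, against 33.8%, and TATAAA in 0 of 9, against 12.4%. The CArG box, the motif of serum response factor (SRF), was searched only as CC, then 6 bases of A or T, then GG. In that exact form the box was in 1 of 9 windows, that of Actg1, against 1.47% of all. It is shown because actin genes are the textbook targets of that factor, with the box in capitals, for chr11:120348551-120348610 on the minus strand. Its first base lies 90 bases before the RefSeq start of the window, which is not the GENCODE gene end printed above.
Actg1: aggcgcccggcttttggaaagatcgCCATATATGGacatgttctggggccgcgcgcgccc
Among the muscle actins, the windows of Acta1 and Actc1 held the exact form as well, that of Acta2 did not, and no window was matched for Actg2. Boxes that depart from the exact form were not searched for, so its lack does not show that a gene has no box. Srf itself was at 1.79 and 1.85 TPM, and its cofactor Mrtfa, which is held by monomeric actin, at 23.6 and 19.9 TPM. A match of letters is a description and not a binding site.

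The other genes of actin and growth cone biology were mostly lower. Of 143 measured genes in 13 lists, 135 were at 1 TPM or more in both libraries, 50 at 100 TPM and 7 at 1000 TPM, with a median of 46.2 TPM. There were 98 below the lowest of the 10 genes and 45 above it. Between the libraries 3 of the 136 expressed were 2-fold or more apart, and these were Acta1, Actc1 and Tpm2.

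Filament nucleators were all or nearly all detected. The Arp2/3 complex, which starts branched filaments, had 10 of 10 subunits at 1 TPM, with the median subunit at 163 TPM, led by Arpc4 at 380 and 367 TPM and Arpc2 at 345 and 348 TPM. The WAVE and WASP factors that switch it on had 11 of 12 and a median of 49.8 TPM. Brk1 led them at 207 and 226 TPM, and Was, the form of blood cells, was lowest at 0.24 and 0.23 TPM. Formins and Ena/VASP proteins, which build unbranched filaments, had 12 of 13 and a median of only 6.77 TPM, led by Evl at 105 and 89.1 TPM.

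Genes that cap, bundle and pull filaments lay between. Capping and severing genes had 9 of 10 at 1 TPM, led by Capzb at 289 and 282 TPM, with the villin gene Vil1 lowest at 0.18 and 0.15 TPM. All 14 crosslinkers and tropomyosins were detected, led by Dbn1, which encodes the neuronal filament-binding protein drebrin, at 466 and 403 TPM, and the bundler Fscn1 at 442 and 404 TPM. Nonmuscle myosin genes had 10 of 10, led by the light chain Myl6 at 721 and 796 TPM. Among motor heavy chains Myh10 had 87.5 and 79.0 TPM and Myh9 9.93 and 7.05 TPM.

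Regulators of cofilin and of actin monomers were detected in 14 of 14 with a median of 23.3 TPM. Wdr1, which helps cofilin take filaments apart, had 176 and 169 TPM, and Limk2, a kinase that switches cofilin off, had 137 and 133 TPM. The partners of Gap43, Basp1 and Marcks included Calm2, which encodes calmodulin, at 2206 and 2518 TPM, above Gap43 itself.

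The 14 other growth cone genes were all detected and had the highest median of these lists, at 410 TPM. Tubb3, the neuronal beta tubulin, had 1568 and 1629 TPM. Stmn2, which binds tubulin in growth cones, had 1072 and 1242 TPM, and the collapsin response mediator genes Dpysl2 and Dpysl3 had 1063 and 1150 TPM and 1042 and 1030 TPM. Gap43 lay within the range of these 4 genes. SRF and its cofactors reached 1 TPM in 6 of 7, with a median of 8.39 TPM.

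**Figure D5:**
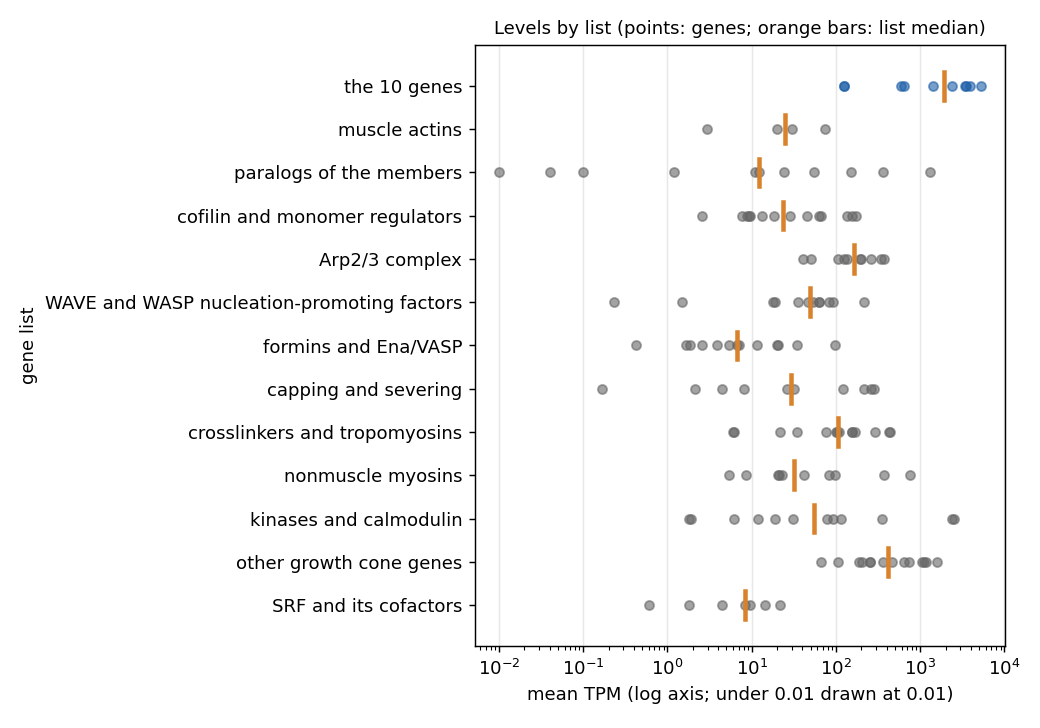
Mean level over both libraries in TPM (log axis) of each gene in 13 lists, with an orange bar at each list's median. The 10 genes have a median of 1911 TPM, and the medians of the other lists run from 6.77 TPM for formins and Ena/VASP to 410 TPM for the other growth cone genes.

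Cells other than neurons also use these genes, and their markers were present. Microglia markers summed to 152 TPM in replicate 1 and 164 TPM in replicate 2, with 8 of 8 detected. Endothelium markers summed to 235 and 213 TPM, also with 8 of 8, and smooth muscle and pericyte markers to 81.0 and 65.0 TPM, with 6 of 8. None of these lists had a gene at 0. The share of the 10 genes' RNA that came from such cells was not tested.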

How the data were processed

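Total RNA was sequenced from 2 hindbrain pools of 1 group. Per the file headers and the deposited notes, the authors quantified each replicate on mm10 with GENCODE M4. No source here states the tool, its version or any use of strand. Per the file headers, the deposited values are expected counts, TPM, FPKM, the bounds of TPM intervals, treated as scores because their level is not stated, and each transcript's percent of the TPM of its gene. TPM is scaled over all features, spike-ins included. RNA was extracted with the mirVana kit, per the labels.

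Names, types and positions came from GENCODE M21 (GRCm38), joined on identifiers without version, with 42462 matches and 884 without one. edgeR 4.0.16 under R 4.3.3 gave TMM factors of rounded counts, without spike-ins, and log2 ratios used a prior count of 0.5. The library factors were 1.00 and 0.997. The step was tested on simulated data. Coding sequences came from the M21 annotation and promoters from RefSeq. Words of 31 bases were compared between transcripts. Other steps ran in Python 3.11.15 and pandas 2.3.3. A pair was called different where its intervals were apart in both libraries.

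The 10 genes and the lists were chosen with earlier results of these data known. Genes named are these 10, both genes of each pair, up to 4 of the highest and 2 of the lowest of each list, and the 5 pseudogene copies with the most counts. Tpm2 and Snx32 were added to these once their values had been seen, and Gm9844 for the words it shares with Tmsb10. No p-value is given, since permuting 2 libraries cannot give one below 0.5. Alternatives covered unit (FPKM, counts, posterior mean TPM), scaling (DESeq2 1.42.0 size factors, spike-ins), prior count, filters and each replicate left out. The results of 1 list and of some list members enter the totals but are not reported here. Pdxp, a list member, had no match and was not analysed here. Of 9 names listed for SRF and its cofactors, 7 were matched.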

Additional observations from a re-analysis of the deposited data

How the results depend on the processing

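The levels of the 10 genes rest on 5554 expected counts or more in each library, and the spread between pools on only 2 libraries. No paired analysis was possible because there was only 1 group. Of the alternatives to the main values, 100 were scored as unchanged, which for pairs meant direction and call alone. Some of these moved in size. From counts, which ignore transcript length, the log2 ratio of Pfn2 to Pfn1 was 1.28, against 0.12. Counts have no intervals, so pairs kept the call from TPM there and it could not change. Over protein-coding transcripts alone the log2 ratio of Arpc1a to Arpc1b was 2.83, against 1.98. Other alternatives changed a direction, a call or a count. Without replicate 1 the log2 ratio of Pfn2 to Pfn1 was 0.203 and the pair was called, and without replicate 2 it was 0.0430. The ratio of Marcks to Basp1 was 1.15 from counts, 0.0459 without replicate 1 and -0.11 without replicate 2, where it was called. The median log2 ratio between libraries was 0.52 with spike-in scaling, against 0.07. Protein-coding genes 2-fold apart numbered 1826 of 21474 with no filter and 48 of 9165 at a mean of 10 TPM, against 209 of 13843. For single genes 92 alternatives stayed within a tolerance of the main value, 13 moved beyond it, and 5 turned sign. For a level the tolerance was its SD. For a ratio between libraries, which has no SD, it grew with the ratio: 0.146 for Gap43 at 0.207, and 0.0178 for Actb at 0.0251. Leaving out a library cannot move a level, or the median level, beyond its SD. FPKM scaled to the same total is TPM again. Leaving out a library also could not undo the direction or call of the 10 called pairs. Adding pseudogene copies could not move genes without copies. Protein-coding transcripts alone could not move Basp1, Marcks or Cfl1, each with 1 listed transcript. All these alternatives could not come out otherwise and test nothing. A prior count of 5 is small beside the counts of these genes and could barely move their ratios. As a ratio of TPM, which counts spike-ins in its total, Basp1 was at -0.0220, Actb at -0.0222 and Actg1 at -0.0118. With spike-in scaling Pfn1 was at 0.24 and Pfn2 at 0.40, and all 10 genes were above 0. The cause of these changes was not tested.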
